A study of Mus musculus with 8 samples.

Results

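Epidermal chemokines are the subject here, and 9 of their genes were followed: Ccl22, Ccl17, Ccl27a, Ccl2, Ccl5, Cxcl1, Cxcl2, Cxcl14 and Cxcl16, out of the 54838 genes of each count table. They were chosen by name as chemokines of the epidermis, the outer epithelium of the skin, and all 9 were found by identifier in each table. RNA came from epidermis that was separated from mouse skin with trypsin. The libraries form 4 groups of 2 biological replicates, Ovol1/2 iDKO and control mice at 52 DPI and Ovol1/2 iDKO and control mice at 25 DPI. The labels name the same tissue and 1 library kit for all of them, although the strand pattern of the counts differs between replicates 1 and 2. The proteins of Ovol1 and Ovol2 are zinc finger repressors of transcription found in epithelial cells. The labels give neither the strain, age and sex of the mice nor what drives the deletion, and iDKO and DPI are written as they stand there.

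Chemokines are small secreted proteins that bind to receptors on leukocytes and steer their movement through tissue. In skin, keratinocytes make some of them at rest and others after a cytokine signal, while Langerhans cells, the dendritic cells of the epidermis, and T cells make further ones. The CC class (5 members here) is named for neighbouring cysteines, and in the CXC class (4 members) another residue separates them. Cxcl16 is unusual in that it is made as a membrane protein and shed by a protease.

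The libraries held 9824307 to 50711381 counts, and 17839 genes passed the filter on low counts. Of the 9 chemokines 8 were among them, and Ccl17 was not. Levels are given in CPM, read counts scaled to a common library size, here after TMM adjustment. An adjusted p under 0.05 over all tested genes was called, by edgeR's quasi-likelihood test without a replicate block unless another tool or fit is named. Keratinocyte markers dominated every library, with Krt14 at 6662 to 21605 CPM in iDKO and 9884 to 19370 CPM in control. In the replicate 2 libraries 95.4% to 95.7% of the strand-assigned counts lay on the second strand, against 49.8% to 49.97% in the replicate 1 libraries, so ratios are also given within 4 pairs, each an iDKO and a control library of equal time and replicate number. Replicate 1 of the control group at 25 DPI also stood apart. Its 10 T cell markers summed to 772 CPM (159 to 586 CPM in the other 7 libraries), its 6 melanocyte markers to 367 CPM (38.5 to 61.0 CPM) and its 5 erythroid markers to 110.9 CPM (0.628 to 18.3 CPM), and counts and fold changes at 25 DPI are given with and without it. Ovol1 and Ovol2 had pair ratios above 1 in all 4 pairs, from 1.10 to 5.61 for Ovol1 and from 1.04 to 1.79 for Ovol2. Reads summed over a gene cannot reveal a missing exon, so the genotype is that of the labels.

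The chemokines fell into 3 abundant genes and 6 low ones. Per kilobase of exonic length, Cxcl14 had the highest median over the 8 libraries, at 304 CPM per kb, followed by Ccl27a at 176 and Cxcl16 at 42.4. Ccl2 and Ccl22 had medians of 6.92 and 6.62 CPM per kb, Cxcl1 had 3.32 and Ccl5 had 1.95. Cxcl2 and Ccl17 were lowest, at 0.632 and 0.315 CPM per kb. The ranges of neighbours in this order overlapped in all cases but 1. Ccl27a, at 95.9 CPM per kb or more, lay above Cxcl16, at 49.1 or less, in all libraries. The ranges of Cxcl16 and Ccl2 met only because Ccl2 reached 33.5 CPM per kb in control replicate 1 at 25 DPI, where Cxcl16 was still higher at 44.1.

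**Figure D1:**
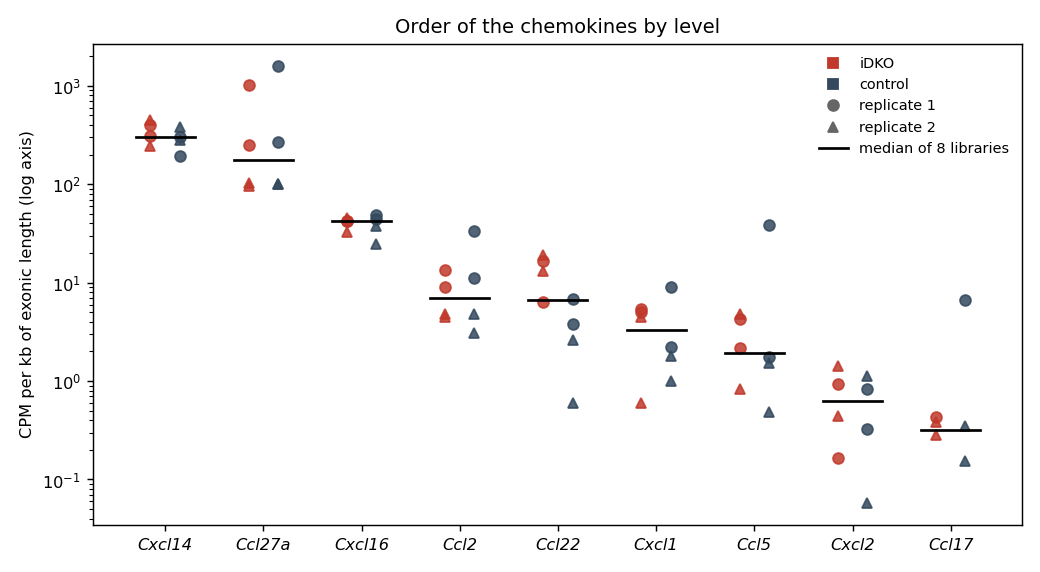
CPM per kb of exonic length (log axis) of the 9 chemokines in each library, with iDKO points left of control points and the median of 8 libraries as a line; the 2 libraries with 0 counts of Ccl17 have no point. Cxcl14 (median 304), Ccl27a (176) and Cxcl16 (42.4) lie above the other 6, whose medians are 0.315 to 6.92.

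Ccl22 had the largest log2 fold change across both times of the 8 tested. It encodes a ligand of the receptor Ccr4 that is made mainly by dendritic cells and macrophages and draws regulatory and type 2 T cells. The gene lies on GRCm38 chromosome 8, 94745590 to 94751699, plus strand. The 52 DPI libraries had 38.3 and 44.0 CPM of Ccl22 in iDKO and 8.75 and 6.11 CPM in control. The 25 DPI libraries had 14.9 and 30.6 CPM of Ccl22 in iDKO and 15.8 and 1.39 CPM in control. Both iDKO libraries thus lay above both control libraries at 52 DPI, while at 25 DPI the groups overlapped because control replicate 1 was slightly above iDKO replicate 1. Means were 41.2 ± 4.01 CPM in iDKO and 7.43 ± 1.86 CPM in control at 52 DPI, and 22.7 ± 11.04 CPM in iDKO and 8.61 ± 10.2 CPM in control at 25 DPI (SD, n = 2 each).

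The log2 fold change of Ccl22 was 2.47 (SE 1.01) at 52 DPI, 1.41 (SE 0.98) at 25 DPI and 1.94 (SE 0.69) across both times. None was called by edgeR (adjusted p = 1.00 in each), with unadjusted p of 0.0421, 0.188 and 0.0211. Among all tested genes, 0.734% had an unadjusted p under 0.05 and were higher in iDKO at 52 DPI, and 0.594% across both times. The fit that compares iDKO with control within pairs (replicate block within time) gave 2.36 across both times with either tool. DESeq2 called it there (SE 0.58, adjusted p = 0.0171), along with 0.32% of tested genes as higher, and edgeR did not (SE 0.70, adjusted p = 0.996). Pairs were then left out 1 at a time, a step chosen after seeing the data, which leaves 1 library per group at that time. The DESeq2 call held only without the 25 DPI pair of replicate 1 (3.12), the 1 pair where Ccl22 was not higher in iDKO. That fit called more genes over the whole table than the fit with all pairs. The call of Ccl22 was lost without the 25 DPI pair of replicate 2 (1.66), the 52 DPI pair of replicate 1 (2.49) and the 52 DPI pair of replicate 2 (2.14). Without the control 25 DPI replicate 1 library edgeR gave 4.01 at 25 DPI and 3.03 across both times, both uncalled (adjusted p = 1.00 for both). Without 1 library at a time the edgeR value lay between 0.56 and 4.01 at 25 DPI and between 2.25 and 2.75 at 52 DPI.

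Ccl17 encodes the other main ligand of Ccr4 and lies on GRCm38 chromosome 8, 94810453 to 94812036, plus strand, 58.8 kb beyond the end of Ccl22. It held 76 counts over the 8 libraries, and 52 of them came from control replicate 1 at 25 DPI. In CPM it was at 0.220 and 0.196 in iDKO and at 0 and 0.0784 in control at 52 DPI. At 25 DPI Ccl17 was at 0 and 0.145 CPM in iDKO and at 3.40 and 0.179 CPM in control. A count of 0 allows up to 0.111 CPM in the control 52 DPI library and 0.342 CPM in the iDKO 25 DPI library, for counting error only (3 counts). Apart from that 1 control library Ccl17 was at or near its floor, it was not tested, and no difference of Ccl17 between the genotypes was detectable at this depth. The neighbouring Ccr4 ligand genes thus had unlike levels, with 3493 counts for Ccl22.

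**Figure D2:**
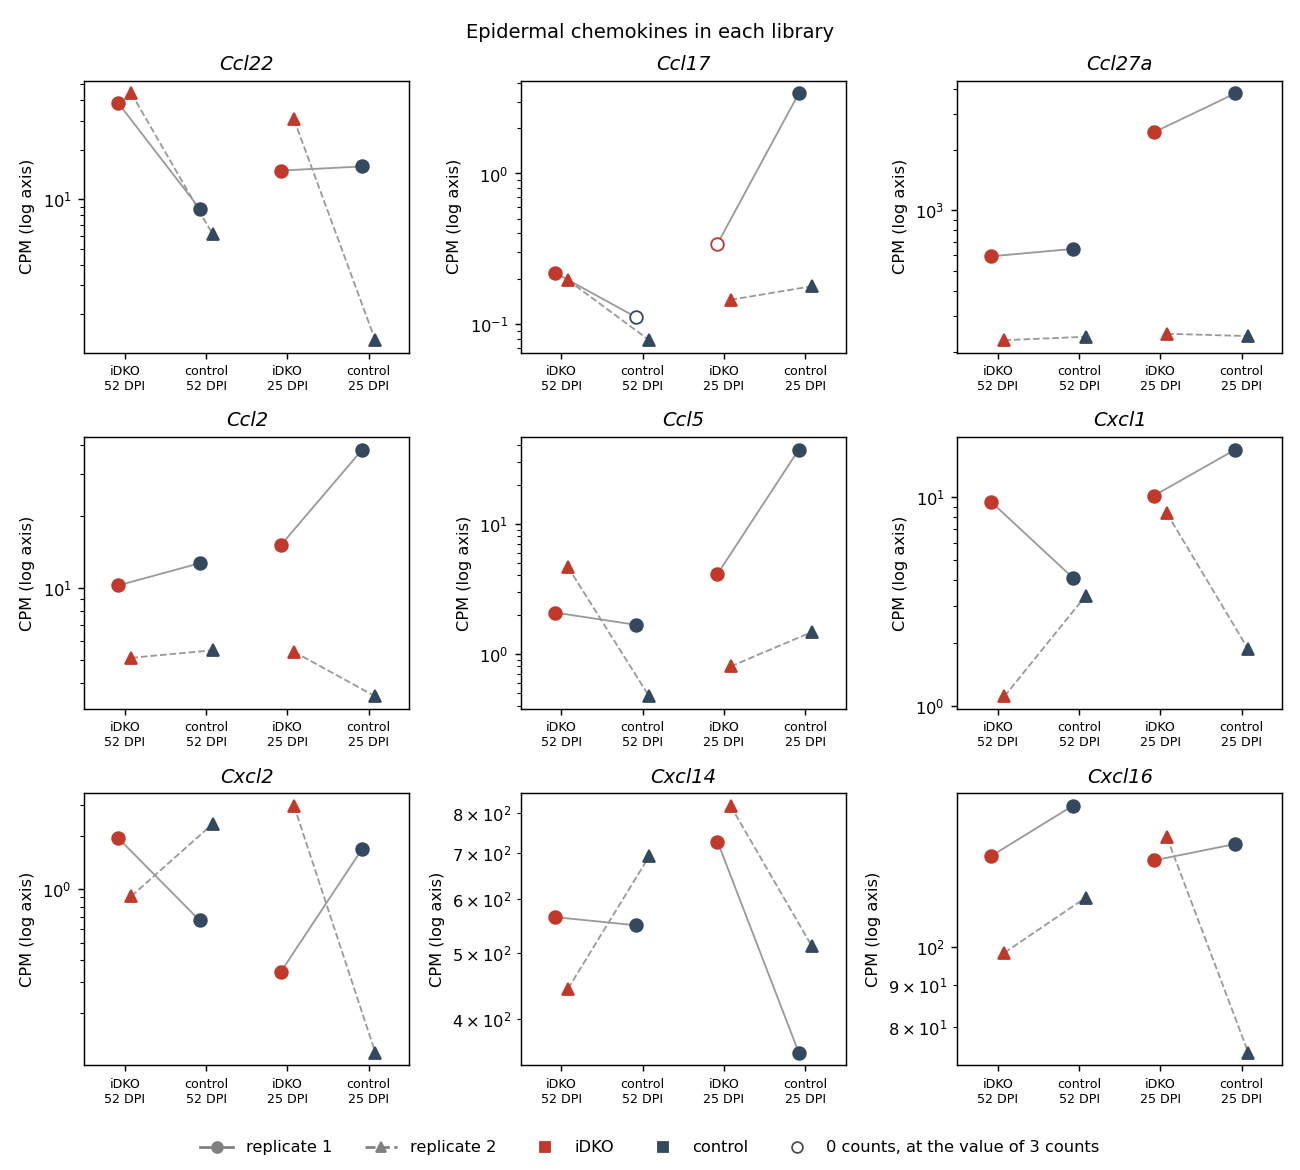
CPM (log axis, own range per panel) of each chemokine in the 8 libraries; lines join the iDKO and control library of the same time and replicate number, and open symbols are 0 counts drawn at the value of 3 counts. Ccl22 is higher in both iDKO libraries at 52 DPI (38.3 and 44.0 CPM in iDKO, 8.75 and 6.11 CPM in control), and Ccl27a separates by replicate number.

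To show what lies before the start of Ccl22, the 156 bases directly ahead of its GENCODE start (94745590) are printed. The RefSeq start lies further on, at 94745684, and the bases between the starts are not shown. The stretch is from RefSeq on GRCm38.p6, chr8:94745434-94745589, plus strand, 5′ to 3′.
Ccl22: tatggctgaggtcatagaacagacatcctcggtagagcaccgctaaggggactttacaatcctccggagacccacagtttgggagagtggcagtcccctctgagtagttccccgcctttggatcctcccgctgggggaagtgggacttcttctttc
The stretch has no capitals because it holds none of the 5 motifs searched on both strands. These were the kappa-B core GGANNTTCC (in 4.26% of 32851 RefSeq promoter windows of 300 bases), the AP-1 motif TGANTCA (7.81%), the interferon-activated motif TTCNNNGAA (8.30%), the Ovo core CCGTTA (2.76%) and the E-box CACCTG, which Zeb1 and Zeb2 bind (20.2%). The E-box occurred once in the Ccl22 window, at position 7 after the RefSeq start and so outside the printed stretch. RefSeq windows were matched for 6 of the 9 chemokines, and Ccl2, Ccl5 and Cxcl16 had none.

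Markers of Langerhans and other dendritic cells varied alongside Ccl22 between libraries. The 12 markers, which include the Langerhans cell lectin Cd207 and the class II genes H2-Aa and Cd74, summed to 1445 and 1138 CPM in iDKO and 608 and 561 CPM in control at 52 DPI. At 25 DPI they summed to 578 and 633 CPM in iDKO and 1161 and 152 CPM in control. The sums had pair ratios of 2.38 and 2.03 at 52 DPI and 0.498 and 4.15 at 25 DPI, each on the same side of 1 as the ratio of Ccl22 in that pair (4.38 and 7.20 at 52 DPI, 0.944 and 22.0 at 25 DPI). This was not particular to dendritic cell markers. Summed chemokine genes outside the 9 (1.09 and 1.52, then 0.494 and 1.55) fell on the same sides. So did summed chemokine receptor genes other than those of the 9 (1.47 and 3.32, then 0.290 and 1.37). All 12 markers were higher in iDKO at 52 DPI (median log2 fold change 1.12, against -0.01 over all tested genes), 6 of 12 at 25 DPI (0.18 against -0.03) and 12 of 12 across both times (0.50 against -0.02), and edgeR called 0 of them. Without control 25 DPI replicate 1 these were 11 of 12 at 25 DPI (1.76) and 12 of 12 across both times (1.36), again with 0 called. Fscn1, an actin-bundling protein of mature dendritic cells, was the marker of smallest unadjusted p. It had a log2 fold change across both times of 1.56 (SE 0.48, unadjusted p = 0.0103, adjusted p = 1.00 by edgeR). Fscn1 did not follow the marker sum in the 25 DPI pair of replicate 1, where its ratio was 3.15 and that of the sum 0.498. None of the 12 was at 0 in any library. In bulk tissue fewer cells of a type and less RNA per cell cannot be told apart.

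Ccl22 was also set against these markers within each library, a ratio chosen after seeing the data. Per 100 CPM of the marker sum, Ccl22 stood at 2.65 and 3.87 CPM in iDKO and 1.44 and 1.09 CPM in control at 52 DPI. At 25 DPI this ratio was 2.59 and 4.83 in iDKO and 1.36 and 0.912 in control. All 4 iDKO libraries lay above all 4 control libraries on this ratio, whereas in CPM alone they did not. Over all tested genes 0.0336% had all 4 iDKO libraries above all 4 control libraries on the same ratio, and of the 8 chemokines tested Ccl22 was the 1 that did. That share does not measure how rare the separation is. The marker sum was lowest in control 25 DPI replicate 2 (152 CPM), and at 52 DPI it was lower in control than in iDKO. A low sum raises the ratio of every gene in that library. Against Cd207 alone the ratio of CPM was 0.588 and 0.647 in iDKO and 0.303 and 0.128 in control at 52 DPI, and 0.868 and 0.614 in iDKO and 0.431 and 0.282 in control at 25 DPI. Against Mfge8, a further marker of the list, the genotypes overlapped, since the control 25 DPI replicate 1 library (0.297) lay above iDKO libraries at 0.186, 0.285 and 0.285. The separation was not limited to dendritic cell markers, since against the T cell marker Cd3e the ratio was 0.371 to 1.87 in the 4 iDKO libraries and 0.0597 to 0.3498 in the 4 control libraries. Macrophage markers were low, at 15.3 to 69.7 CPM summed over 10 genes, with Mrc1 at 0 in 7 of 8 libraries. The part of cell numbers in the Ccl22 values was not tested.

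**Figure D3:**
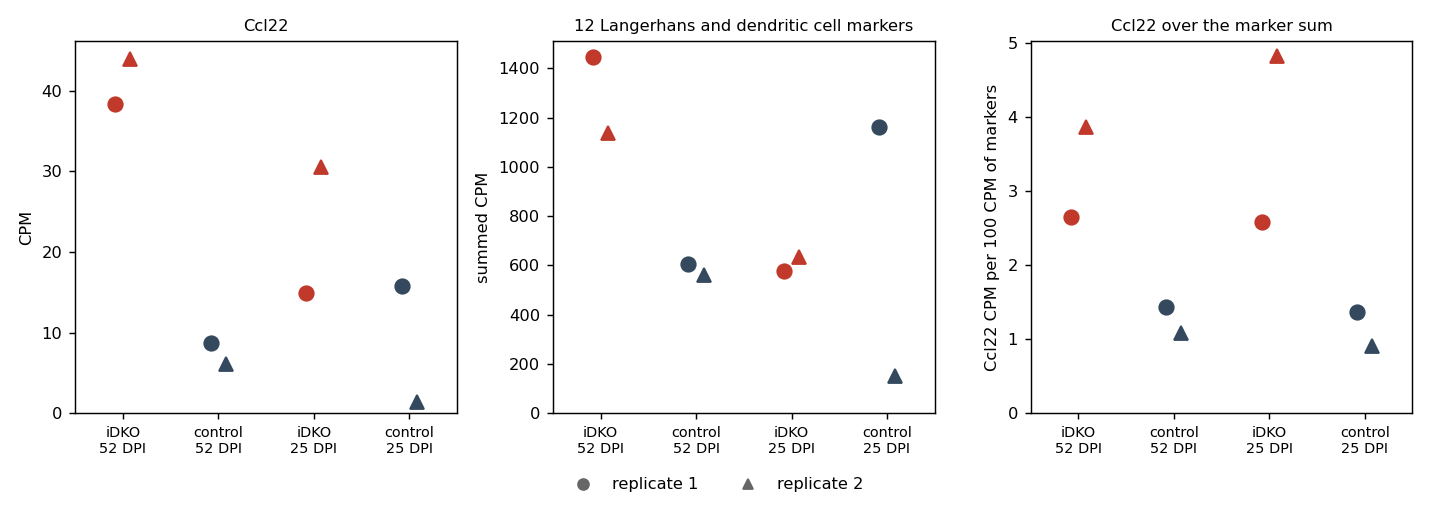
Ccl22 in CPM (left), summed CPM of 12 Langerhans and dendritic cell markers (middle) and Ccl22 CPM per 100 CPM of the markers (right) in each library, iDKO in red and control in dark blue. The ratio is 2.59 to 4.83 in the 4 iDKO libraries and 0.912 to 1.44 in the 4 control libraries.

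Ccl27a, a chemokine of basal keratinocytes that draws skin-homing T cells through Ccr10, separated by replicate number, and no difference by genotype was called. It lies on GRCm38 chromosome 4, 41769467 to 41774247, minus strand. Ccl27a stood at 593 and 228 CPM in iDKO and at 645 and 237 CPM in control at 52 DPI. At 25 DPI Ccl27a stood at 2437 and 245 CPM in iDKO and at 3797 and 239 CPM in control. The replicate 2 libraries thus covered 228 to 245 CPM and the replicate 1 libraries 593 to 3797 CPM, with no overlap. Within pairs the ratios were 0.920 and 0.962 at 52 DPI and 0.642 and 1.03 at 25 DPI. The log2 fold change at 52 DPI was -0.10 (SE 1.40) and that at 25 DPI was -0.59 (SE 1.40), neither called by edgeR (adjusted p = 1.00 for both). The SE shrank to 0.28 for both with the replicate block within time (-0.09 and -0.30, adjusted p = 1.00 and 0.789 by edgeR). Without control replicate 1 at 25 DPI the value of that time was 2.42, the opposite direction, and without iDKO replicate 2 it was 0.25. At 52 DPI the value was 0.80 without control replicate 1 and 0.43 without iDKO replicate 2. The mouse genome holds near-identical copies of Ccl27a, and how reads shared among copies were counted is not given in the sources used here. Ccl27b, 1 such copy, was listed at 0 in all libraries.

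Ccl2 attracts monocytes and memory T cells through Ccr2, and Ccl5, a product of activated T cells as well as of other cells, draws T cells and monocytes. Both had their highest value in the control 25 DPI library that stands apart. Ccl2 (GRCm38 chromosome 11, 82035571 to 82037453, plus strand) was at 10.3 and 5.10 CPM in iDKO and 12.7 and 5.49 CPM in control at 52 DPI. At 25 DPI Ccl2 was at 15.2 and 5.41 CPM in iDKO and 38.1 and 3.51 CPM in control. As with Ccl27a, every replicate 1 library (10.3 to 38.1 CPM) lay above every replicate 2 library (3.51 to 5.49 CPM). For Ccl2 the log2 fold change at 52 DPI was -0.24 (SE 1.07) and that at 25 DPI was -1.02 (SE 1.08), and edgeR called neither (adjusted p = 1.00 for both). The value at 25 DPI was 1.48, in the opposite direction, without control replicate 1 of that time. At 52 DPI the value was 0.49 without control replicate 1 and 0.18 without iDKO replicate 2.

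Ccl5 (GRCm38 chromosome 11, 83525778 to 83530518, minus strand) differed in direction between the times. At 52 DPI Ccl5 was at 2.07 and 4.64 CPM in iDKO and at 1.67 and 0.470 CPM in control, with no overlap. The counts behind these values were low, 66 and 71 in iDKO and 45 and 6 in control. At 25 DPI Ccl5 was at 4.11 and 0.798 CPM in iDKO and at 37.1 and 1.47 CPM in control, where the iDKO library was the lower one of each pair. The Ccl5 log2 fold change at 52 DPI was 1.61 (SE 1.44) and that at 25 DPI was -3.00 (SE 1.5), and edgeR called neither (adjusted p = 1.00 for both). The difference between them was 4.61 (SE 2.07) and was not called either (unadjusted p = 0.0579, adjusted p = 1.00). Fitted by DESeq2 within pairs, the difference was 3.72 (SE 1.08, adjusted p = 0.0915). Without control 25 DPI replicate 1 the value at 25 DPI was 0.64, higher in iDKO, and the difference between times was 0.98. T cell markers summed to 308 and 586 CPM in iDKO and 240 and 159 CPM in control at 52 DPI, and to 299 and 203 CPM in iDKO and 772 and 230 CPM in control at 25 DPI. Their pair ratios, 1.28 and 3.68, then 0.387 and 0.885, were on the same side of 1 as those of Ccl5 in every pair (1.2425 and 9.88, then 0.111 and 0.543). All 10 T cell markers were higher in iDKO at 52 DPI and 1 of 10 at 25 DPI (7 of 10 without control replicate 1), with 0 called, and their part in the Ccl5 values was not tested.

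Cxcl1 and Cxcl2 encode neutrophil attractants that act through Cxcr2 and that keratinocytes make when stimulated. They lie 10.8 kb apart on the plus strand of GRCm38 chromosome 5, at 90891241 to 90893115 and 90903871 to 90905938. Cxcl1 was at 9.45 and 1.11 CPM in iDKO and 4.11 and 3.37 CPM in control at 52 DPI. At 25 DPI Cxcl1 was at 10.2 and 8.35 CPM in iDKO and 16.9 and 1.87 CPM in control. At 52 DPI the iDKO libraries spread widely and at 25 DPI the control libraries did, and the groups overlapped at both times. Cxcl2 was at 1.95 and 0.916 CPM in iDKO and 0.667 and 2.35 CPM in control at 52 DPI. At 25 DPI Cxcl2 was at 0.342 and 2.98 CPM in iDKO and 1.70 and 0.119 CPM in control, with counts of 3 to 82 behind the 8 values.

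The neighbours moved to the same side in each of the 4 pairs. Il1b, an inducing cytokine named after its values were seen, had the same sides (2.31 and 0.494 at 52 DPI, 0.216 and 9.02 at 25 DPI). Other inducing cytokines such as Tnf (1.29 and 3.06, then 0.534 and 3.91) and Il6 (2.83 and 0.587, then 3.54 and 4.31) did not. How often genes over the whole table had these sides was not counted. Cxcl1 had pair ratios of 2.30 and 0.330 at 52 DPI and 0.602 and 4.47 at 25 DPI, and Cxcl2 had 2.92 and 0.390 at 52 DPI and 0.201 and 25.0 at 25 DPI. At each time the ratio was above 1 in 1 pair and below 1 in the other, so neither gene had a direction by genotype. Log2 fold changes across both times were 0.24 (SE 0.77) for Cxcl1 and 0.44 (SE 0.97) for Cxcl2, with no call by edgeR (adjusted p = 1.00 each). These were -0.61 for Cxcl1 without iDKO 52 DPI replicate 1 and -0.48 for Cxcl2 without iDKO 25 DPI replicate 2, and 1.15 and 1.13 without control 25 DPI replicate 1. Without control 25 DPI replicate 2 they were -0.06 and -0.01. Neutrophil markers were nearly absent, with Ly6g and Retnlg at 0 in all 8 libraries and a sum over 7 markers of 0.342 to 3.67 CPM in iDKO and 0.261 to 0.862 CPM in control. The receptor gene Cxcr2 was at 0 to 0.471 CPM in iDKO and 0 to 1.88 CPM in control.

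Stretches before the starts of Cxcl1 and Cxcl2 are shown because both hold the kappa-B core, the letters that NF-kappa-B proteins bind. They are from RefSeq on GRCm38.p6, plus strand, 5′ to 3′, at chr5:90891145-90891213 and chr5:90903773-90903841, with the match in capitals.
Cxcl1: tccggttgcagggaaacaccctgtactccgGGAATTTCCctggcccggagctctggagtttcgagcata
Cxcl2: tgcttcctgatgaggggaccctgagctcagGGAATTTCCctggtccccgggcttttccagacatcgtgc
The same letters, GGAATTTCC, stood at position -70 from the RefSeq start of Cxcl1 and -96 from that of Cxcl2, where the core GGANNTTCC matched on both strands in overlapping positions. The other windows of the chemokines held no match to that core. The interferon-activated motif matched at position -99 of Ccl17 and -191 of Cxcl14. The Ccl27a windows, 1 for each of 3 starts, held the Ovo core in 2 that overlap, the E-box in 2 and the AP-1 motif in 1. These are matches of letters and say nothing of binding, and a link to the pair ratios was not tested.

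Cxcl14, which resting keratinocytes make and which also acts on microbes, was abundant in every library. It lies on GRCm38 chromosome 13, 56288643 to 56296551, minus strand. At 52 DPI Cxcl14 was at 564 and 442 CPM in iDKO and at 548 and 692 CPM in control. At 25 DPI Cxcl14 was at 727 and 821 CPM in iDKO and at 357 and 511 CPM in control. The iDKO libraries lay above the control libraries at 25 DPI and overlapped with them at 52 DPI. Its log2 fold change at 25 DPI was 0.84 (SE 0.53) and that at 52 DPI was -0.30 (SE 0.53), and the difference, 52 minus 25 DPI, was -1.14 (SE 0.75), none called by edgeR (adjusted p = 1.00 for each). With the replicate block within time DESeq2 gave 0.84 (SE 0.29) at 25 DPI (adjusted p = 0.217). The values at 25 DPI without 1 library were 0.56 to 1.15, with 0.56 without control replicate 1. Cxcl14 was the 1 chemokine whose iDKO libraries both lay above both control libraries at 25 DPI.

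Cxcl16, the membrane-bound ligand of Cxcr6, varied least. It lies on GRCm38 chromosome 11, 70453983 to 70459984, minus strand. Cxcl16 levels were 129 and 98.4 CPM in iDKO and 148 and 115 CPM in control at 52 DPI, and 127 and 136 CPM in iDKO and 133 and 74.5 CPM in control at 25 DPI. The groups overlapped at both times, and the highest value was within 2 times the lowest over all 8 libraries (148 against 74.5 CPM). The log2 fold change at 52 DPI was -0.21 (SE 0.50) and that at 25 DPI was 0.34 (SE 0.50), neither called by edgeR (adjusted p = 1.00 each). The value at 25 DPI was 0.79 without control replicate 1. Cxcl16 shares 552 exonic bases, 18.3% of its length, with Zmynd15 on the other strand. In the replicate 2 libraries 97.6% to 99.1% of its strand-assigned counts lay on the second strand. The strands cannot be told apart in the replicate 1 libraries.

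**Figure D4:**
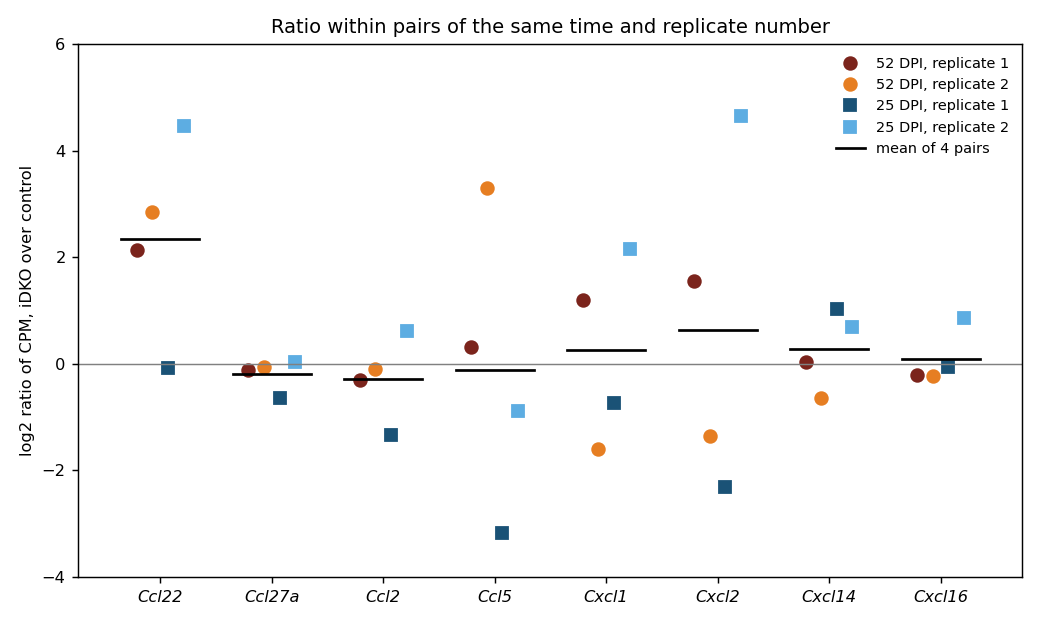
Log2 ratio of CPM, iDKO over control, within the 4 pairs of the same time and replicate number for the 8 tested chemokines, with the mean of 4 pairs as a line. Ccl22 is above 0 in 3 pairs (mean 2.34) and just below 0 in the 25 DPI pair of replicate 1 (-0.08), and no chemokine lies on one side in all 4 pairs.

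Across pairs, Ccl22 was higher in iDKO in 3 of 4 pairs with a mean log2 ratio of 2.34 (SD 1.88, n = 4 pairs), and an exact two-sided sign-flip permutation test gave p = 0.25. The smallest p that 4 pairs allow is 0.125. The means of the other 7 tested chemokines lay between -0.28 (Ccl2) and 0.63 (Cxcl2), with exact p of 0.25 to 1.00. None of the 8 was higher in all 4 pairs, and none was lower in all 4. Over all tested genes 6.73% were higher and 6.7% lower in all 4 pairs. By groups, 2 of 8 chemokines (Ccl22 and Ccl5) had both iDKO libraries above both control libraries at 52 DPI, where 11.9% of tested genes did, and 0 had both below, where 10.2% did. At 25 DPI 1 of 8 (Cxcl14) was above (5.39% of tested genes) and 0 below (5.15%). Over all genes edgeR called 0 of 17839 between the genotypes at 52 DPI (0%), at 25 DPI (0%), across both times (0%) and for the difference between times (0%). Unadjusted p values under 0.05 numbered 143, 75, 130 and 139 in these comparisons. DESeq2 without a block called 1, 2, 8 and 0 genes, and limma-voom called 0 in each, with no chemokine among them.

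The directions of 4 of the 8 tested chemokines at 25 DPI (Ccl27a, Ccl2, Ccl5 and Cxcl1) turned without control replicate 1, and Ccl22, Cxcl2, Cxcl14 and Cxcl16 were higher in iDKO with and without it. Cxcl2 at 25 DPI had a log2 fold change of 0.94 (SE 1.45, adjusted p = 1.00 by edgeR), and it was -1.37 without iDKO replicate 2. By edgeR 3 of the 8 tested chemokines were higher in iDKO at 52 DPI (median log2 fold change -0.08), 4 of 8 at 25 DPI (0.16) and 5 of 8 across both times (0.15), with 0 called. Without control replicate 1 of 25 DPI, left out after seeing the data, 8 of 8 were higher at 25 DPI (1.87, against 0.04 over all tested genes) and 8 of 8 across both times (0.95 against 0.03), again with 0 called. The 25 DPI control group is then replicate 2 alone, set against iDKO libraries of both replicate numbers, and its spread is assumed to be that of the other groups. Ccl27a and Ccl2 were higher in every replicate 1 library, and within the 25 DPI pair of replicate 2 the ratios of Ccl27a and Ccl5 were 1.03 and 0.543.

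Between the times, no chemokine was called. Ccl27a had the largest value, with a log2 fold change of -1.95 (SE 0.96) for 52 against 25 DPI across both genotypes (adjusted p = 0.862 by edgeR), and it was -0.77 without control 25 DPI replicate 1. Ccl5 had -1.84 (SE 1.55), Cxcl1 -1.05 (SE 0.78) and Ccl2 -0.80 (SE 0.73), also uncalled by edgeR (adjusted p = 0.862, 0.862 and 0.863). Without the same control library these were 0.13, -0.12 and 0.28. Ccl22 had 0.33 (SE 0.67), Cxcl2 0.25 (SE 0.97), Cxcl16 0.07 (SE 0.32) and Cxcl14 -0.05 (SE 0.38). Over all genes edgeR called 4 (0.0224%). Y-linked transcripts were present in the 25 DPI libraries and Xist was abundant in those of 52 DPI. Sex and time thus cannot be told apart, and this also holds for every difference of the genotype effect between the times.

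Receptors of these chemokines were detected at low to moderate levels. Of 8 receptor genes 6 were tested, 4 were higher and 2 lower in iDKO at 52 DPI (median log2 fold change 0.72), and 1 was higher and 5 lower at 25 DPI (-1.23), with 0 called. The count at 25 DPI was 4 of 6 higher (0.31) without control replicate 1. Ccr4, the receptor for Ccl22 and Ccl17, was at 8.82 and 14.8 CPM in iDKO and 10.4 and 17.4 CPM in control at 52 DPI, and at 37.5 and 16.8 CPM in iDKO and 19.5 and 24.1 CPM in control at 25 DPI. Ccr4 overlapped between the genotypes at both times. Ccr10, the receptor for Ccl27a, was at 0.942 and 2.09 CPM in iDKO and 0.704 and 1.72 CPM in control at 52 DPI, and at 1.48 and 2.07 CPM in iDKO and 6.28 and 2.40 CPM in control at 25 DPI. Cxcr6, the receptor for Cxcl16 on T cells, was at 32.1 and 24.7 CPM in iDKO and 21.9 and 4.15 CPM in control at 52 DPI, and at 15.9 and 4.10 CPM in iDKO and 111.2 and 6.63 CPM in control at 25 DPI. Its high value falls in the control library rich in T cell markers. Ccr1 and Ccr3 were at or near 0 and were not tested.

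Of 10 other chemokine receptor genes 8 were tested, 8 were higher in iDKO at 52 DPI (median 0.94) and 2 at 25 DPI (-1.37), or 4 (0.31) without control replicate 1, and 0 were called. Ccr7, which maturing dendritic cells use to leave the skin, was at 13.8 and 11.97 CPM in iDKO and 5.93 and 3.21 CPM in control at 52 DPI. At 25 DPI Ccr7 was at 7.87 and 6.28 CPM in iDKO and 6.86 and 0.596 CPM in control. The iDKO library was higher in all 4 pairs, as for 6.73% of all tested genes, with ratios of 2.33, 3.73, 1.15 and 10.5. The log2 fold change of Ccr7 across both times was 1.22 (SE 0.66, adjusted p = 1.00 by edgeR). Of 5 genes of atypical receptors, which take up chemokines without moving the cell, 4 were tested, 0 were higher at 52 DPI (median -0.95) and 3 at 25 DPI (0.28), or 2 (-0.05) without control replicate 1, none called. Ackr2, which takes up inflammatory CC chemokines, had -0.58 (SE 0.65) across both times. Ackr4, which removes chemokines of the Ccr7 class, was at 146 and 45.2 CPM in iDKO and 261 and 201 CPM in control at 52 DPI, with no overlap. Over all tested genes 10.2% were lower in iDKO without overlap at that time. At 25 DPI Ackr4 was at 354 and 97.4 CPM in iDKO and 292 and 209 CPM in control, which overlapped.

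Of 29 other chemokine genes 12 were tested, and 10 were higher in iDKO at 52 DPI (median 0.47) and 3 at 25 DPI (-1.33), with 0 called. Leaving out control 25 DPI replicate 1 made 10 of the 12 higher at 25 DPI (0.46). Cxcl12 and Cx3cl1 were the most abundant of them. Cx3cl1, a membrane-bound chemokine, was at 75.9 and 43.8 CPM in iDKO and 63.7 and 41.8 CPM in control at 52 DPI, and at 36.8 and 61.1 CPM in iDKO and 25.6 and 31.6 CPM in control at 25 DPI. It was higher in iDKO in all 4 pairs, as were 6.73% of all tested genes. Its log2 fold change across both times was 0.48 (SE 0.34, adjusted p = 1.00 by edgeR). Ccl20, which keratinocytes make in response to type 17 cytokines, had 0.99 (SE 0.96), and Ccl7, a monocyte attractant, had -0.90 (SE 0.91). Ccl4, a chemokine of activated T cells, reached 49.9 CPM in control 25 DPI replicate 1 and was at 0.109 to 1.70 CPM elsewhere.

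Genes that act before and after chemokines were examined as lists. Of 9 proteases known to cut chemokines, all tested, 4 were higher in iDKO across both times, with or without control 25 DPI replicate 1, and 0 were called. Mmp9 among them, a protease that trims several chemokines, was at 18.9 and 16.2 CPM in iDKO and 9.64 and 8.78 CPM in control at 52 DPI, and at 6.50 and 6.75 CPM in iDKO and 3.46 and 2.26 CPM in control at 25 DPI. Its groups did not overlap at either time. Over all tested genes 11.9% were higher in iDKO without overlap at 52 DPI and 5.39% at 25 DPI, and the share at both times was not counted. The log2 fold change of Mmp9 across both times was 1.07 (SE 0.31, unadjusted p = 0.00834, adjusted p = 1.00 by edgeR). Adam10 and Adam17, which shed Cxcl16 and Cx3cl1, were at 73.8 to 159 and 65.1 to 106 CPM in iDKO and at 44.8 to 132 and 38.1 to 124 CPM in control. Of 15 inducing cytokines 13 were tested, with 10 higher at 52 DPI (median 0.82) and 7 at 25 DPI (0.00), or 8 (0.88) without control replicate 1, 0 called. Il17a, which stimulates keratinocytes, had a log2 fold change across both times of 1.82 (SE 1.14, adjusted p = 1.00 by edgeR). It was 3.57 (SE 1.39) at 52 DPI and 0.08 (SE 1.28) at 25 DPI. Levels were low, at 0.942 and 2.62 CPM in iDKO and 0.259 and 0 CPM in control at 52 DPI. Il6, an inflammatory cytokine, had a log2 fold change across both times of 1.29 (SE 0.56, unadjusted p = 0.0472, adjusted p = 1.00 by edgeR). Tnf, an inducer of NF-kappa-B targets such as Cxcl1 and Cxcl2, had 0.79 (SE 0.51). Il4 and Il13, the type 2 cytokines that induce Ccl17 and Ccl22, stood at 0.283 to 1.96 and 0.722 to 6.02 CPM in iDKO and 0.185 to 1.05 and 0.371 to 1.93 CPM in control. Of 15 transcription factor and pathway genes, chiefly of NF-kappa-B and STAT signalling, all were tested. At 52 DPI 4 were higher (median -0.14), at 25 DPI 12 were (0.82, and 12 without control replicate 1), and 0 were called. Bcl3, an NF-kappa-B cofactor, had 0.86 across both times (SE 0.35, unadjusted p = 0.0388, adjusted p = 1.00 by edgeR).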

How the data were processed

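RNA-seq libraries of mouse epidermis (4 groups of 2, as labelled) were analysed. RNA was isolated with Trizol and libraries made with a Clontech SMART-seq v4 low input kit, per the labels' protocols. The submitters' processing notes name STAR 2.5.2a, FastQC 0.11.9, DESeq2 1.24.0 and Trimmomatic 0.35, with the build GRCm38 (mm10). Their settings and the annotation release were not given in the sources used here. Each deposited file holds unnormalized read counts for every gene, in 1 column that ignores strand, taken here, and 1 for each strand.

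Identifiers were matched to GENCODE vM21 (54809 genes, 29 unmatched), which gave coordinates and exonic lengths. Counts were filtered with filterByExpr, which left 17839 genes, scaled by TMM and fitted with edgeR 4.0.16 (R 4.3.3), with 1 mean per group over all 8 libraries, or time plus genotype for comparisons across both. P values were adjusted by Benjamini-Hochberg over all tested genes and measure the spread between 2 biological replicates, which also differ in strand pattern. CPM uses the TMM-scaled library size. Alternatives were DESeq2 1.42.0, limma-voom (limma 3.58.1), RLE scaling, no filter, second-strand counts for replicate 2, replicate blocks and leaving out each library. The code was tested on simulated data. Intervals from counts of 0 cover counting error only.

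The labels number replicates 1 and 2 in each group. Deviations from the group means correlated at 0.396 to 0.793 over 17839 genes in each of the 6 group pairs. Replicate numbers were treated as pairing in the pair ratios and block fits only. The main edgeR fits had no block, so their SE and p values ignore this pairing. In the genotype comparisons 0.42% to 0.802% of tested genes had an unadjusted p under 0.05 by these fits. With the block within time edgeR gave 4.02% to 6.51%.

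The chemokines and gene lists were chosen with earlier results of these data known. All 9 chemokines were named, with up to 3 tested genes per pathway list of smallest unadjusted p across both times. Of the genes this rule picks, 1 is not reported here. Ccr4, Cxcr6, Cxcl12, Ccl4, Adam10, Adam17, Il1b, Il4, Il13, Krt14, Cd207 and Cd3e were named outside that rule, after their values were seen. A rule for naming genes with pair ratios like those of a chemokine named none, as no chemokine kept 1 direction in all 4 pairs.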

Additional observations from a re-analysis of the deposited data

Results flagged for a closer look

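Ccl5 went in opposite directions at the 2 times, since both iDKO libraries lay above both control libraries at 52 DPI and each iDKO library lay below the control library of its pair at 25 DPI. The difference, 52 minus 25 DPI, was 4.61 on the log2 scale. Tested as an interaction, it was not called by edgeR (SE 2.07, adjusted p = 1.00). It was 0.98 without control 25 DPI replicate 1. Sex goes with time in these libraries, so a difference between the times cannot be told apart from 1 between the sexes.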

How the results depend on the processing

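The 2 libraries per group limit every comparison, and edgeR called none of the 8 tested chemokines under any setting. Directions changed for Cxcl1, Cxcl2 and Ccl22 alone without leaving out a library, and the cause was not tested. For Cxcl1 the log2 fold change at 25 DPI was 0.98 by limma-voom, 0.026 with second-strand counts, 0.69 with the replicate block, 0.71 with the block within time and 0.70 by DESeq2 with it. At 52 DPI it was -0.0021 by limma-voom, -0.12 with the replicate block, -0.039 with the block within time and -0.14 by DESeq2 with it. Its difference between times was -0.99 by limma-voom, -0.82 with the replicate block, -0.75 with the block within time and -0.85 by DESeq2 with it. Cxcl2 at 52 DPI had 0.36 by limma-voom, 0.14 with the block within time and 0.0897 by DESeq2 with it, and the Ccl22 difference between times was -0.13 by limma-voom. Other chemokines changed direction only when 1 library was left out. For iDKO against control at 52 DPI these ranges were -0.96 to 0.80 (Ccl27a), -0.84 to 0.49 (Ccl2), -1.75 to 1.34 (Cxcl1), -0.71 to 1.12 (Cxcl2). For iDKO against control at 25 DPI these ranges were -2.93 to 2.42 (Ccl27a), -1.87 to 1.48 (Ccl2), -4.47 to 0.64 (Ccl5), -0.84 to 2.26 (Cxcl1), -1.37 to 3.78 (Cxcl2). For iDKO against control across both times these ranges were -1.05 to 0.77 (Ccl27a), -0.94 to 0.39 (Ccl2), -1.71 to 1.21 (Ccl5), -0.61 to 1.15 (Cxcl1), -0.48 to 1.13 (Cxcl2), -0.12 to 0.21 (Cxcl16). For the difference of the genotype effect, 52 minus 25 DPI these ranges were -1.54 to 1.91 (Ccl22), -2.52 to 2.83 (Ccl27a), -1.72 to 1.63 (Ccl2), -1.76 to 1.35 (Cxcl1), -3.83 to 1.33 (Cxcl2). For 52 against 25 DPI these ranges were -1.14 to 0.28 (Ccl2), -2.96 to 0.13 (Ccl5), -0.26 to 1.16 (Cxcl2), -0.26 to 0.17 (Cxcl14), -0.12 to 0.24 (Cxcl16).

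The count of genes called between the genotypes at 25 DPI (0 by edgeR) was 2 by DESeq2, 8 without a filter on low counts and 96 when DESeq2 used the block within time. At 52 DPI it was 1, 25 and 35, and across both times 8, 16 and 70 under the same settings, with 1 by edgeR with that block. For the difference between times it was 19 without a filter and 38 by DESeq2 with the block. Between the times it was 4 by edgeR, 72 by DESeq2, 184 without a filter, 1 with second-strand counts and 0 to 2 with 1 library left out. The block changed no call of a chemokine other than that of Ccl22 across both times by DESeq2 (2.36). The comparison of the times could not be fitted beside a block within time. Scaling by library size alone moved the mean pair ratios by less than their spread between pairs.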

Other observations

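Other markers outside the chemokines differed between single libraries. Erythroid markers summed to 0.628 and 18.3 CPM in iDKO and 1.37 and 0.862 CPM in control at 52 DPI. At 25 DPI they summed to 3.19 and 2.72 CPM in iDKO and 110.9 and 1.19 CPM in control. Fibroblast markers summed to 40.9 and 140.1 CPM in iDKO and 42.3 and 52.6 CPM in control at 52 DPI, and to 37.5 and 181.7 CPM in iDKO and 53.5 and 62.4 CPM in control at 25 DPI, and 7 of 8 were higher in iDKO at both times, with 0 called. Endothelial markers summed to 1.37 to 5.91 CPM in iDKO and 0.719 to 5.10 CPM in control. Of 7 basal keratinocyte markers 0 were higher in iDKO at 52 DPI and 6 at 25 DPI, and of 7 suprabasal markers 3 and 5 were, with 0 called. Without control 25 DPI replicate 1 these were 2 and 5 at 25 DPI. Of 12 dissociation stress genes 2 were higher at 52 DPI and 9 at 25 DPI, with 0 called. Of 7 tested macrophage markers 7 were higher at 52 DPI and 4 at 25 DPI, of 6 melanocyte markers 1 and 1, of 5 erythroid markers 5 and 0 and of 2 endothelial markers 1 and 1, with 0 called. S100a9, the 1 neutrophil marker tested, was higher at both times and uncalled. Without control 25 DPI replicate 1 the counts higher at 25 DPI were 6 of 7 (macrophage), 4 of 6 (melanocyte), 4 of 5 (erythroid), 0 of 2 (endothelial), 8 of 8 (fibroblast) and 8 of 12 (stress).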
